A study of Homo sapiens with 24 samples.

Results

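The 8 genes described here carry and control the synthesis of cholesterol. They were chosen by name from the 51715 genes of the count files and consist of 5 enzymes of the pathway, HMGCS1, IDI1, FDFT1, SQLE and CYP51A1, the genes of both SREBP transcription factors, SREBF1 and SREBF2, and INSIG1, whose protein holds those factors back. All 8 were matched by symbol to an Ensembl gene, all 8 had reads in each of the 23 libraries analysed, and all 8 passed the filter on low counts in every comparison.

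Cells make cholesterol from acetyl-CoA through mevalonate, the isoprenoid phosphates, squalene and lanosterol. SREBP proteins are made in the membrane of the endoplasmic reticulum, where the escort protein SCAP senses cholesterol. When sterols are scarce, SCAP takes SREBP to the Golgi, proteases release the part that enters the nucleus, and that part switches on the enzymes of the pathway and INSIG1. When sterols are plentiful, INSIG proteins keep SCAP and SREBP in the endoplasmic reticulum. SREBP-2, from SREBF2, acts mostly on cholesterol genes, and SREBP-1c, an isoform from SREBF1, mostly on fatty acid genes. The mRNA level of an SREBP gene does not show how much of its protein is cleaved, and cleavage was not measured here.

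The study sequenced poly(A)-selected RNA from A-431 (epidermoid carcinoma), U-251MG (glioblastoma) and U-2 OS (osteosarcoma), lines of cultured tumour cells, all human, with no treatment named in the labels. From each line, RNA of whole cells (total RNA) and RNA of the cytoplasm was extracted from growing cells. Each of the 6 groups had 4 biological replicates. By the study's methods, another lysis buffer was used for the cytoplasmic RNA. The study judged the purity of that fraction by the lack of a nuclear peak in electrophoresis. Whether a total and a cytoplasmic library came from the same culture is not given in the sources used here. The serum and sterol content of the medium, on which these genes depend, is not given either, and each line was grown in the medium its provider advised, so the medium and the line cannot be told apart.

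Reads assigned to genes numbered 19918911 to 32394170 a library. Levels are given as CPM, the counts of a gene relative to the gene counts of its library after TMM scaling, and each difference is a log2 difference with its standard error. Of 24 deposited libraries, U-2 OS cytoplasmic replicate 13 was left out. It stood apart, with 21.5% of its reads outside annotated features against 16.9% to 17.8% in the other U-2 OS libraries, and its read totals matched no entry of the study's list, whose methods say that a cytoplasmic U-2 OS sample was discarded. With it put back, no call on the 8 genes was lost and 1 was gained, SREBF1 in A-431 against U-251MG in cytoplasmic RNA. U-251MG total replicate 8 also stood apart, with the lowest GC index of all libraries, -0.891 against -0.530 to 0.607 in the others. For this index, log2 CPM was centred on each gene's own mean over the libraries, for genes with a mean log2 CPM above 0. The index is the median over genes above 60% GC less the median over genes under 40% GC. The listed markers of squamous epithelium summed to 14120.5 to 18844 CPM in A-431 and to at most 579 CPM in the other lines, although KRT14 stood at only 0.105 CPM in A-431 total RNA. The A-431 sum mostly followed EGFR, which reached 17170.5 CPM. The highest of the other squamous markers, DSP, reached 880 CPM. The glial markers summed to 1238 to 2287 CPM in U-251MG with OLIG2 at 0 and GFAP at 2.62 CPM in total RNA, to 589 to 798 CPM in A-431 and to 304 to 327 CPM in U-2 OS. The U-251MG sum mostly followed CD44, which reached 2050.5 CPM. The highest of the other glial markers, NES, reached 184 CPM. In A-431 only 1 of the 7 glial markers had a mean above 1 CPM. The osteoblast markers summed to 2733 to 2906 CPM in U-2 OS with IBSP at 0 and reached the same range in U-251MG, so they do not set those lines apart. Markers of hepatocytes, steroid glands and leukocytes summed to at most 2.20 CPM in every group.

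The 4 promoters below belong to the genes on which the comparisons turn: INSIG1, with the largest difference between lines, IDI1 and HMGCS1, which differ from U-2 OS in opposite directions in U-251MG, and SREBF2, the regulator. Each is the stretch before the RefSeq start that lies outside the gene as GENCODE places it, matched to GRCh37, 5′ to 3′ on the gene's own strand, with 250 bases for IDI1 and SREBF2, 150 for HMGCS1 and 148 for INSIG1. Their places are chr7:155089338-155089485 (plus strand), chr22:42228859-42229108 (plus), chr10:1095060-1095309 (minus) and chr5:43313615-43313764 (minus). Capitals mark the searched motifs, and a match on the opposite strand shows as its reverse complement.
INSIG1: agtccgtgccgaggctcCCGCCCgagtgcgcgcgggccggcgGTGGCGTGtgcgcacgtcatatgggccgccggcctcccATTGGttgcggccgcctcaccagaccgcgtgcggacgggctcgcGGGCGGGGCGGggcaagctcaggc
SREBF2: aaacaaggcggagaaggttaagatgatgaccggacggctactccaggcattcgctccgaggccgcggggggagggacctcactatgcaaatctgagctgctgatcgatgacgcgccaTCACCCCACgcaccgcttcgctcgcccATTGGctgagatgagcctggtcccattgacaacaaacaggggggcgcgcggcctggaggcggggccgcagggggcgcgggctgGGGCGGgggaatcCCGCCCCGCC
IDI1: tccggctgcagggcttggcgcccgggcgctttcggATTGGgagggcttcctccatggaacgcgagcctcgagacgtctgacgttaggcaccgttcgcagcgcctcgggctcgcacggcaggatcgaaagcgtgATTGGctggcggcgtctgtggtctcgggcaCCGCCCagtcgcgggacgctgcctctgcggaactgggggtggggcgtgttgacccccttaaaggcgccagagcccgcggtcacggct
HMGCS1: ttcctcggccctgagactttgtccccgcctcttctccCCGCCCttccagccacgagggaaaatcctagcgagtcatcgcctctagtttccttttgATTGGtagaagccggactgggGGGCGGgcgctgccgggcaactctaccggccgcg

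The motifs searched on both strands were TCACNCCAC (a sterol response element, bound by SREBP), its shorter form CACNCCAC, CCAAT (bound by NF-Y), GGGCGG (bound by Sp1) and CACGTG (an E-box). Every TCACNCCAC match is also a match of the shorter form, and Sp1 matches can overlap each other. Counts were made over the window from 250 bases before to 50 bases after the start, of which the printed stretches are part. SREBF2 held 1 full sterol element, 133 bases before the start, where 1.122% of the 34943 RefSeq promoters of that length hold one. INSIG1 held 1 shorter form on the opposite strand, which 5.86% of promoters hold. CCAAT boxes, found in 34.6% of promoters, numbered 2 in HMGCS1, 2 in IDI1, 1 in SREBF2 and 1 in INSIG1. Of those in HMGCS1, the one 100 bases before the start lies past the printed stretch. Sp1 boxes, found in 44.9%, numbered 6 in INSIG1, 3 each in SREBF2 and SREBF1, 2 in HMGCS1 and 1 each in IDI1 and CYP51A1, of which 3 in INSIG1 lie past the printed stretch and 1 in SREBF2 runs over the start. INSIG1 alone of these 6 held an E-box, which 7.23% of promoters hold. This E-box lies 55 bases before the start, past the printed stretch. A match describes the letters only, and binding was not measured. No window was matched for SQLE or FDFT1.

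Both SREBP genes also carry a microRNA, shown here because the host genes are members and the pair shares its seed. miR-33a lies in intron 16 of SREBF2 (chr22:42296948-42297016, plus strand) and miR-33b in intron 16 of SREBF1 (chr17:17717150-17717245, minus strand), both on GRCh37, with mature sequences from RefSeq. Capitals mark the seed, bases 2 to 8.
hsa-miR-33a-5p: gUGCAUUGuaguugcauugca
hsa-miR-33b-5p: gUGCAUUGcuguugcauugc
The seed UGCAUUG is the same in both. Libraries of poly(A) RNA do not measure mature microRNAs, and a read had to lie within a gene to be counted, which genes this short leave little or no room for, so no value is given for either. miR-33 is known to act on ABCA1, the cholesterol exporter, whose levels are given with the efflux genes.

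SREBF2 (ENSG00000198911) lies on chromosome 22, positions 42229109 to 42303310 of GRCh37, plus strand (19 exons in the transcript used), and encodes SREBP-2. In U-2 OS, SREBF2 stood at 290.4, 267, 292 and 262 CPM in the 4 total libraries and at 296, 327 and 299 CPM in the 3 cytoplasmic libraries. In U-251MG, SREBF2 stood at 159, 170.2, 182 and 132 CPM in the 4 total libraries and at 216, 215, 174 and 179 CPM in the 4 cytoplasmic libraries. In A-431, SREBF2 stood at 247, 246, 232 and 238 CPM in the 4 total libraries and at 243, 235, 250.4 and 287 CPM in the 4 cytoplasmic libraries. The lines did not overlap in either fraction, with U-2 OS highest and U-251MG lowest. SREBF2 averaged 278 ± 15.6 CPM (SD, n = 4) in U-2 OS, 161 ± 21.2 CPM in U-251MG and 241 ± 6.95 CPM in A-431 in total RNA. By edgeR's quasi-likelihood test with Benjamini-Hochberg adjustment over all genes tested, called at an adjusted p under 0.001 here and in every comparison of lines or fractions, SREBF2 was 1.74-fold lower in U-251MG than in U-2 OS in total RNA, a log2 difference of -0.80 ± 0.076 (SE, adjusted p = 5.12e-10). It was 1.53-fold higher in A-431 than in U-251MG (0.61 ± 0.075, adjusted p = 6.17e-08). A-431 against U-2 OS gave -0.18 ± 0.075 (SE, adjusted p = 0.0285) in total RNA, which did not pass but passed without U-251MG total replicate 8 (-0.21, adjusted p = 9.16e-04). The lines share 1 estimate of the spread. In cytoplasmic RNA the same pair gave -0.25 ± 0.087 (SE, adjusted p = 0.0131), which passed without A-431 cytoplasmic replicate 24 (-0.36, adjusted p = 3.18e-04). There U-251MG was again lower than U-2 OS (-0.62 ± 0.087, adjusted p = 2.61e-06). The cytoplasmic difference of A-431 from U-251MG, 0.37 ± 0.081 (SE, adjusted p = 4.26e-04), lost its call without U-251MG cytoplasmic replicate 19 or 20 or A-431 cytoplasmic replicate 21, 23 or 24, when it stood between 0.26 and 0.36 with adjusted p from 0.00119 to 0.00453. On RPKM it was also not called (0.33, limma adjusted p = 0.0221). An antisense gene, SREBF2-AS1, had 123 to 317 counts and shares 3.95% of the 50-base words of the SREBF2 transcript, and since strand was not kept its reads cannot be told apart there.

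SREBF1 (ENSG00000072310) lies on chromosome 17, positions 17713713 to 17740316 of GRCh37, minus strand (19 exons in the transcript used), and encodes SREBP-1a and SREBP-1c from different first exons, which gene counts do not separate. In U-2 OS, SREBF1 stood at 79.8, 83.2, 89.7 and 77.5 CPM in the 4 total libraries and at 99.2, 109 and 97.5 CPM in the 3 cytoplasmic libraries. In U-251MG, SREBF1 stood at 142, 153, 199.7 and 73.5 CPM in the 4 total libraries and at 233, 273, 176 and 190.5 CPM in the 4 cytoplasmic libraries. In A-431, SREBF1 stood at 118, 126, 109 and 114 CPM in the 4 total libraries and at 130.1, 128, 136 and 167 CPM in the 4 cytoplasmic libraries. U-251MG total replicate 8, at 73.5 CPM, lay below every U-2 OS and A-431 total library, while the other 3 U-251MG total libraries lay above both lines. In cytoplasmic RNA the lines did not overlap and the order was U-251MG, A-431, U-2 OS. SREBF1 averaged 82.6 ± 5.30 CPM (SD, n = 4) in U-2 OS, 142 ± 52.2 CPM in U-251MG and 117 ± 7.20 CPM in A-431 in total RNA. U-251MG exceeded U-2 OS in cytoplasmic RNA by 2.18-fold, a log2 difference of 1.13 ± 0.15 (SE, adjusted p = 2.84e-05). In total RNA the same difference was 0.77 ± 0.24 (SE, adjusted p = 0.0152) and was not called by the edgeR test, but without U-251MG total replicate 8 it was 0.99 with an adjusted p of 6.31e-09. A-431 and U-2 OS differed by 0.52 ± 0.24 (SE, adjusted p = 0.0738) in total RNA and by 0.48 ± 0.15 (SE, adjusted p = 0.0112) in cytoplasmic RNA, neither of which passed although the libraries did not overlap. With a GC offset the cytoplasmic value passed, at 0.60 (adjusted p = 2.58e-05). A-431 against U-251MG gave -0.25 ± 0.24 (SE, adjusted p = 0.374) in total RNA. Without replicate 8 both total RNA differences passed, at 0.50, adjusted p = 2.59e-05 against U-2 OS and -0.50, adjusted p = 6.14e-05 against U-251MG. In cytoplasmic RNA, A-431 against U-251MG gave -0.64 ± 0.14 (SE, adjusted p = 0.00114), just short of the threshold, and it passed without U-251MG cytoplasmic replicate 18, 19 or 20 or A-431 cytoplasmic replicate 24 (log2 difference -0.78 to -0.51, adjusted p 5.89e-05 to 6.75e-04). It also passed with RLE scaling (adjusted p = 7.60e-04), by DESeq2 (4e-07) and with a GC offset (1.20e-05). SREBF1 is the member with the highest GC content, 63.2% of its transcript, and U-251MG total replicate 8 is the library with the lowest GC index. The part of GC content in its low SREBF1 value was not tested.

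INSIG1 (ENSG00000186480) lies on chromosome 7, positions 155089486 to 155101945 of GRCh37, plus strand (6 exons in the transcript used), and its protein binds SCAP in the endoplasmic reticulum. In U-2 OS, INSIG1 stood at 23.9, 26.5, 26.6 and 25.9 CPM in the 4 total libraries and at 19.99, 22.2 and 22.7 CPM in the 3 cytoplasmic libraries. In U-251MG, INSIG1 stood at 315, 398, 349 and 293 CPM in the 4 total libraries and at 181, 254, 285 and 291 CPM in the 4 cytoplasmic libraries. In A-431, INSIG1 stood at 209, 186, 227 and 189 CPM in the 4 total libraries and at 173, 160.2, 178 and 174 CPM in the 4 cytoplasmic libraries. No line overlapped another in either fraction, and U-2 OS lay far below both other lines. INSIG1 averaged 25.7 ± 1.24 CPM (SD, n = 4) in U-2 OS, 339 ± 45.9 CPM in U-251MG and 203 ± 19.4 CPM in A-431 in total RNA. INSIG1 was 13.1-fold higher in U-251MG than in U-2 OS in total RNA (3.71 ± 0.093, adjusted p = 5.18e-21) and 7.99995-fold higher in A-431 than in U-2 OS (2.99999 ± 0.091, adjusted p = 1.51e-19), by the edgeR test. These were the largest differences between lines among the 8 genes. In cytoplasmic RNA they were 3.58 ± 0.15 and 3.01 ± 0.15, both called. A-431 was 1.64-fold lower than U-251MG in total RNA (-0.71 ± 0.082, adjusted p = 3.23e-08), which was not called on RPKM (-0.64, limma adjusted p = 0.0221). The cytoplasmic difference of the same lines, -0.57 ± 0.12 (SE, adjusted p = 6.34e-04), was near the threshold. It lost its call without U-2 OS cytoplasmic replicate 15 or 16, U-251MG cytoplasmic replicate 18 or 19, or any A-431 cytoplasmic replicate (21 to 24), with adjusted p from 0.00108 to 0.00337 and log2 differences from -0.62 to -0.55, on RPKM it was -0.28 and with a GC offset -0.59 (adjusted p = 0.00254), neither called.

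INSIG2, the paralogue of INSIG1, which is not known as an SREBP target, followed another order, with mean levels in total RNA of 32.9 ± 1.28 CPM (SD, n = 4) in U-2 OS, 28.4 ± 2.23 CPM in U-251MG and 98.2 ± 6.43 CPM in A-431. It was 3.54-fold higher in A-431 than in U-251MG (1.82 ± 0.072, adjusted p = 8.08e-18, edgeR), where INSIG1 was lower. Per kilobase of transcript and within the same library, INSIG1 was 0.958 ± 0.0493 times INSIG2 in U-2 OS total RNA (mean and SD, n = 4), 14.7 ± 2.05 times in U-251MG and 2.52 ± 0.156 times in A-431. The ratio was lowest in U-2 OS and highest in U-251MG, with no overlap between lines. Its level depends on the counting, since on the deposited RPKM the means of INSIG1 and INSIG2 were 359 and 375 for total RNA of A-431, 70.5 and 208 for U-2 OS, and 571 and 111 for U-251MG. SREBF2 per kilobase was 3.15 ± 0.180 times SREBF1 in U-2 OS total RNA, 1.16 ± 0.364 times in U-251MG and 1.93 ± 0.0727 times in A-431. In U-251MG cytoplasmic RNA it was 0.853 ± 0.0798 times, so that SREBF1 was the higher gene in all 4 of those libraries. On RPKM SREBF1 was also above SREBF2 in U-251MG total RNA, with means of 647 and 566.

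**Figure D1:**
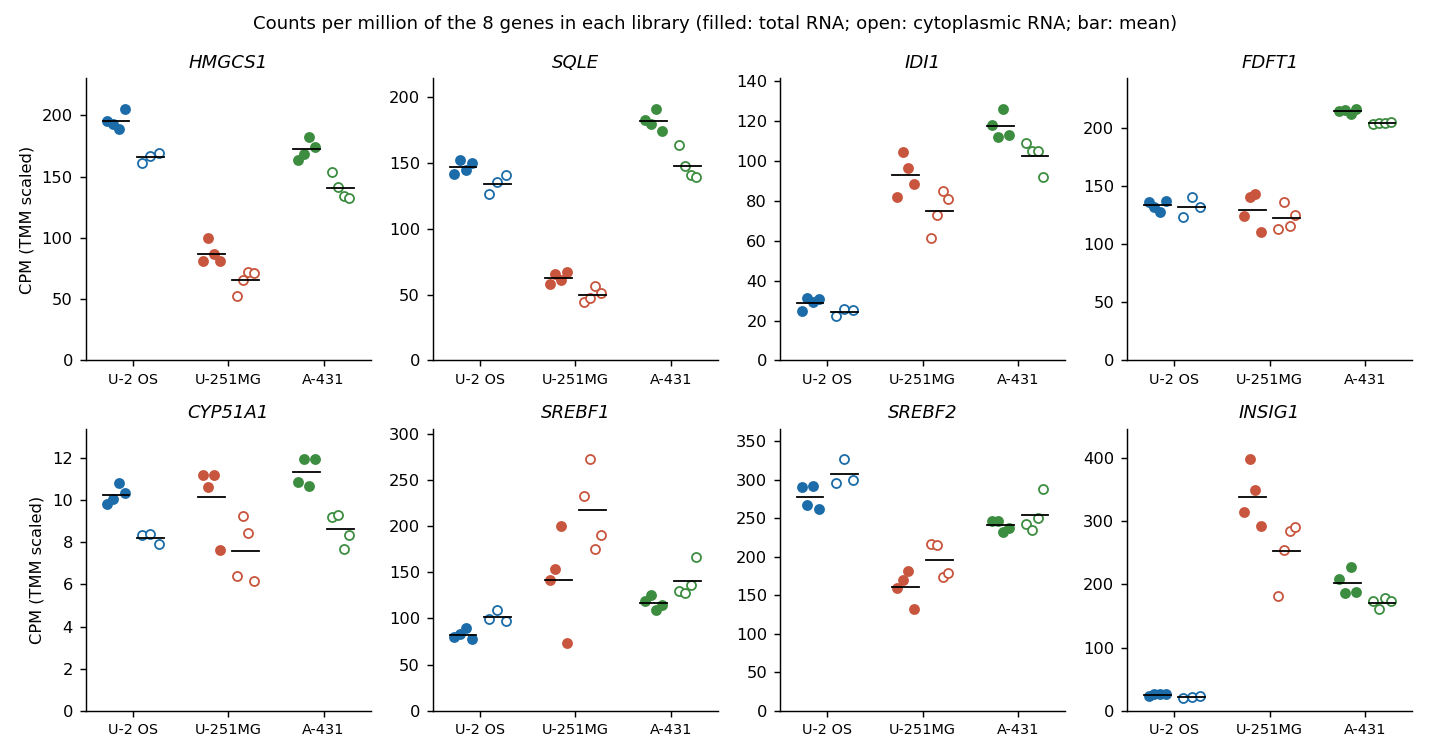
Level of each of the 8 genes in each of the 23 libraries, in CPM with TMM scaling on an axis from 0, by cell line. Filled points are total RNA, open points cytoplasmic RNA, and the bar is the mean. INSIG1 means in total RNA ran from 25.7 CPM in U-2 OS to 339 CPM in U-251MG, and the one low SREBF1 point in U-251MG total RNA is replicate 8 at 73.5 CPM.

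HMGCS1 (ENSG00000112972) lies on chromosome 5, positions 43287572 to 43313614 of GRCh37, minus strand (11 exons in the transcript used), and encodes the cytosolic HMG-CoA synthase, which works early in the pathway, before mevalonate. In U-2 OS, HMGCS1 stood at 195, 193, 189 and 206 CPM in the 4 total libraries and at 161, 167 and 169.6 CPM in the 3 cytoplasmic libraries. In U-251MG, HMGCS1 stood at 81.1, 100.1, 87.1 and 80.8 CPM in the 4 total libraries and at 52.8, 65.4, 72.1 and 71.5 CPM in the 4 cytoplasmic libraries. In A-431, HMGCS1 stood at 164, 168, 182 and 174 CPM in the 4 total libraries and at 154, 141, 134 and 133 CPM in the 4 cytoplasmic libraries. The libraries of U-251MG lay below those of the other lines in both fractions, and U-2 OS lay above A-431 without overlap. HMGCS1 averaged 196 ± 6.997 CPM (SD, n = 4) in U-2 OS, 87.3 ± 8.99 CPM in U-251MG and 172 ± 8.09 CPM in A-431 in total RNA. HMGCS1 was 2.25-fold lower in U-251MG than in U-2 OS (-1.17 ± 0.069, adjusted p = 3.48e-14) and 2.02-fold higher in A-431 than in U-251MG (1.01 ± 0.068, adjusted p = 7.00e-13), by the edgeR test in total RNA. In cytoplasmic RNA these differences were -1.31 ± 0.083 and 1.097 ± 0.079, both called. A-431 against U-2 OS gave -0.16 ± 0.067 (SE, adjusted p = 0.0315) in total and -0.22 ± 0.082 (SE, adjusted p = 0.0222) in cytoplasmic RNA, which did not pass. The second passed without U-251MG cytoplasmic replicate 17 (-0.26, adjusted p = 4.83e-04).

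IDI1 (ENSG00000067064) lies on chromosome 10, positions 1085092 to 1095059 of GRCh37, minus strand (5 exons in the transcript used), and encodes the isomerase that turns isopentenyl diphosphate into dimethylallyl diphosphate. In U-2 OS, IDI1 stood at 24.7, 31.2, 29.2 and 31.0 CPM in the 4 total libraries and at 22.4, 26.0 and 25.1 CPM in the 3 cytoplasmic libraries. In U-251MG, IDI1 stood at 82.0, 104, 96.6 and 88.4 CPM in the 4 total libraries and at 61.3, 73.2, 84.9 and 81.2 CPM in the 4 cytoplasmic libraries. In A-431, IDI1 stood at 118, 112, 126 and 113 CPM in the 4 total libraries and at 109, 105, 105 and 92.0 CPM in the 4 cytoplasmic libraries. U-2 OS was the low line here, and A-431 lay above U-251MG without overlap. IDI1 averaged 29.0 ± 3.03 CPM (SD, n = 4) in U-2 OS, 92.9 ± 9.77 CPM in U-251MG and 117 ± 6.49 CPM in A-431 in total RNA. IDI1 was 4.11-fold higher in A-431 than in U-2 OS (2.04 ± 0.082, adjusted p = 1.05e-17) and 3.18-fold higher in U-251MG than in U-2 OS (1.67 ± 0.082, adjusted p = 8.96e-16), by the edgeR test in total RNA. In cytoplasmic RNA these differences were 2.09 ± 0.10 and 1.65 ± 0.10, both called. A-431 exceeded U-251MG by 0.37 ± 0.077 (SE, adjusted p = 1.40e-04) in total RNA and 0.45 ± 0.082 (SE, adjusted p = 6.20e-05) in cytoplasmic RNA. The first lost its call without U-251MG total replicate 5 or A-431 total replicate 9 or 11, at 0.29 to 0.34 with adjusted p from 0.00122 to 0.00270. On RPKM neither was called (0.39, limma adjusted p = 0.0173 in total RNA and 0.42, limma adjusted p = 0.0358 in cytoplasmic RNA). IDI1 shares 6.21% of its 50-base words with IDI2-AS1 and the pseudogene IDI1P1, and IDI2 had at most 1 count in any library.

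HMGCS1 and IDI1 act a few steps apart in the same pathway and stood in opposite order between U-2 OS and U-251MG. Per kilobase of transcript and within the same library, HMGCS1 was 3.48 ± 0.395 times IDI1 in U-2 OS total RNA (mean and SD, n = 4), 0.482 ± 0.0206 times in U-251MG and 0.752 ± 0.0339 times in A-431. In cytoplasmic RNA the ratios were 3.48 ± 0.195 (n = 3), 0.446 ± 0.0101 and 0.701 ± 0.0384. The lowest ratio in U-2 OS was above the highest ratio of the other lines in both fractions. On the deposited RPKM the direction within the other lines turned, with means in total RNA of 191 for HMGCS1 against 161 for IDI1 in U-251MG and 389.6 against 209.9 in A-431, while U-2 OS had 518 against 54.0.

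FDFT1 (ENSG00000079459) lies on chromosome 8, positions 11653082 to 11696904 of GRCh37, plus strand (8 exons in the transcript used), and encodes squalene synthase, the first step that leads to sterols alone. In U-2 OS, FDFT1 stood at 137, 132, 128 and 138 CPM in the 4 total libraries and at 124, 140.5 and 132 CPM in the 3 cytoplasmic libraries. In U-251MG, FDFT1 stood at 125, 141, 144 and 110.3 CPM in the 4 total libraries and at 113, 137, 116 and 125 CPM in the 4 cytoplasmic libraries. In A-431, FDFT1 stood at 215, 216, 212 and 217 CPM in the 4 total libraries and at 204, 204, 204 and 206 CPM in the 4 cytoplasmic libraries. A-431 was high and even, while U-2 OS and U-251MG overlapped in both fractions. FDFT1 averaged 134 ± 4.44 CPM (SD, n = 4) in U-2 OS, 129.98 ± 15.6 CPM in U-251MG and 215 ± 1.997 CPM in A-431 in total RNA. FDFT1 was 1.63-fold higher in A-431 than in U-2 OS (0.71 ± 0.070, adjusted p = 1.04e-09) and 1.69-fold higher than in U-251MG (0.76 ± 0.070, adjusted p = 3.69e-10), by the edgeR test in total RNA. The cytoplasmic differences were 0.66 ± 0.067 and 0.73 ± 0.062, both called. U-251MG against U-2 OS gave -0.050 ± 0.070 (SE, adjusted p = 0.525) in total and -0.075 ± 0.067 (SE, adjusted p = 0.308) in cytoplasmic RNA.

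SQLE (ENSG00000104549) lies on chromosome 8, positions 126010739 to 126034525 of GRCh37, plus strand (11 exons in the transcript used), and encodes squalene epoxidase, a rate-limiting enzyme after squalene. In U-2 OS, SQLE stood at 142, 153, 145 and 150.0 CPM in the 4 total libraries and at 127, 136 and 141 CPM in the 3 cytoplasmic libraries. In U-251MG, SQLE stood at 57.8, 65.9, 61.4 and 67.1 CPM in the 4 total libraries and at 44.6, 47.7, 56.4 and 51.4 CPM in the 4 cytoplasmic libraries. In A-431, SQLE stood at 183, 179.9, 192 and 175 CPM in the 4 total libraries and at 164, 148, 141 and 139 CPM in the 4 cytoplasmic libraries. U-251MG was again the low line, as for HMGCS1. A-431 lay above U-2 OS without overlap in total RNA, and the lines overlapped in cytoplasmic RNA. SQLE averaged 147 ± 4.92 CPM (SD, n = 4) in U-2 OS, 63.1 ± 4.27 CPM in U-251MG and 182 ± 7.01 CPM in A-431 in total RNA. SQLE was 2.95-fold higher in A-431 than in U-251MG (1.56 ± 0.063, adjusted p = 1.03e-17) and 2.35-fold lower in U-251MG than in U-2 OS (-1.23 ± 0.062, adjusted p = 1.72e-15), by the edgeR test in total RNA. The cytoplasmic differences were 1.56 ± 0.071 and -1.40 ± 0.075, both called. A-431 exceeded U-2 OS by 0.33 ± 0.061 (SE, adjusted p = 2.18e-05) in total RNA, which was not called on RPKM (0.26, limma adjusted p = 0.0231), and the cytoplasmic value of 0.16 ± 0.074 (SE, adjusted p = 0.0541) did not pass. Per kilobase, SQLE was 0.757 ± 0.0354 times FDFT1 in U-2 OS total RNA, 0.338 ± 0.0547 times in U-251MG and 0.582 ± 0.0279 times in A-431.

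CYP51A1 (ENSG00000001630) lies on chromosome 7, positions 91714301 to 91764117 of GRCh37, minus strand (10 exons in the transcript used), and encodes the demethylase that acts on lanosterol. In U-2 OS, CYP51A1 stood at 9.81, 10.1, 10.8 and 10.4 CPM in the 4 total libraries and at 8.35, 8.39 and 7.92 CPM in the 3 cytoplasmic libraries. In U-251MG, CYP51A1 stood at 11.2, 10.6, 11.2 and 7.64 CPM in the 4 total libraries and at 6.43, 9.23, 8.46 and 6.18 CPM in the 4 cytoplasmic libraries. In A-431, CYP51A1 stood at 10.9, 11.9, 10.7 and 11.96 CPM in the 4 total libraries and at 9.21, 9.29, 7.67 and 8.35 CPM in the 4 cytoplasmic libraries. The lines overlapped in both fractions, and U-251MG total replicate 8 was the low library of its group. None of the 6 differences between lines was called, and the log2 differences in total RNA were 0.17 ± 0.11 (SE, adjusted p = 0.176) for A-431 against U-2 OS, 0.20 ± 0.11 (SE, adjusted p = 0.124) for A-431 against U-251MG and -0.028 ± 0.11 (SE, adjusted p = 0.8292) for U-251MG against U-2 OS. The sign of the last turned without U-2 OS total replicate 3 (0.045) or U-251MG total replicate 8 (0.094). These counts are uncertain. CYP51A1 had 161 to 336 counts a library, while its pseudogenes CYP51A1P2 and CYP51A1P1 had 445 to 1011 and 315 to 646, and 19.7% of the 50-base words of its transcript occur in other counted genes. How reads were divided between them was not tested.

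Between genes, levels can be compared only per length, here as CPM per kilobase of the transcript used. In total RNA FDFT1 was highest in U-2 OS (65.8 ± 2.18 CPM per kilobase, SD, n = 4) and A-431 (106 ± 0.981), and INSIG1 in U-251MG (117 ± 15.8). CYP51A1 was lowest in all 6 groups, at 3.25 ± 0.136, 3.22 ± 0.540 and 3.60 ± 0.220 CPM per kilobase in total RNA, in the order U-2 OS, U-251MG, A-431. INSIG1 moved from the seventh place of the 8 in U-2 OS to the second in A-431 and the first in U-251MG. The deposited RPKM values order the genes differently, with SREBF2 first in U-2 OS and A-431 and SREBF1 first in U-251MG total RNA. The ratio of RPKM to CPM per kilobase ran from 5.12 in IDI1 to 73.0 in CYP51A1, so the order between genes depends on how reads were counted.

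Across the 8 genes, 4 were higher and 0 lower in A-431 than in U-2 OS in total RNA, beside 30.8% and 34.8% of all genes tested. The 4 were IDI1, FDFT1, SQLE and INSIG1. In A-431 against U-251MG, 5 were higher and 1, INSIG1, lower, beside 29.3% and 28.5%. In U-251MG against U-2 OS, 2 were higher (IDI1 and INSIG1) and 3 lower (HMGCS1, SQLE and SREBF2), beside 28.3% and 34.2%. Most genes tested were called between these lines, so the counts alone say little and the sizes carry the comparison. The median log2 difference over the 8 genes was 0.43 in A-431 against U-2 OS, 0.49 in A-431 against U-251MG and -0.039 in U-251MG against U-2 OS, where the medians over all genes were -0.067, 0 and -0.090.

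In cytoplasmic RNA, 3 of the 8 genes were higher and 0 lower in A-431 than in U-2 OS (all genes 31.1% and 34.1%). In A-431 against U-251MG, 5 were higher and 1 lower (30.0% and 30.1%). In U-251MG against U-2 OS, 3 were higher and 3 lower (28.7% and 33.2%). The calls were those of total RNA except that SQLE was not called in A-431 against U-2 OS and SREBF1 was called in U-251MG against U-2 OS. The lines held the same order in both fractions for each of the 8 genes by mean CPM. Total RNA was sequenced on 1 flow cell throughout, whereas the cytoplasmic libraries mix 2 flow cells unevenly between lines.

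**Figure D2:**
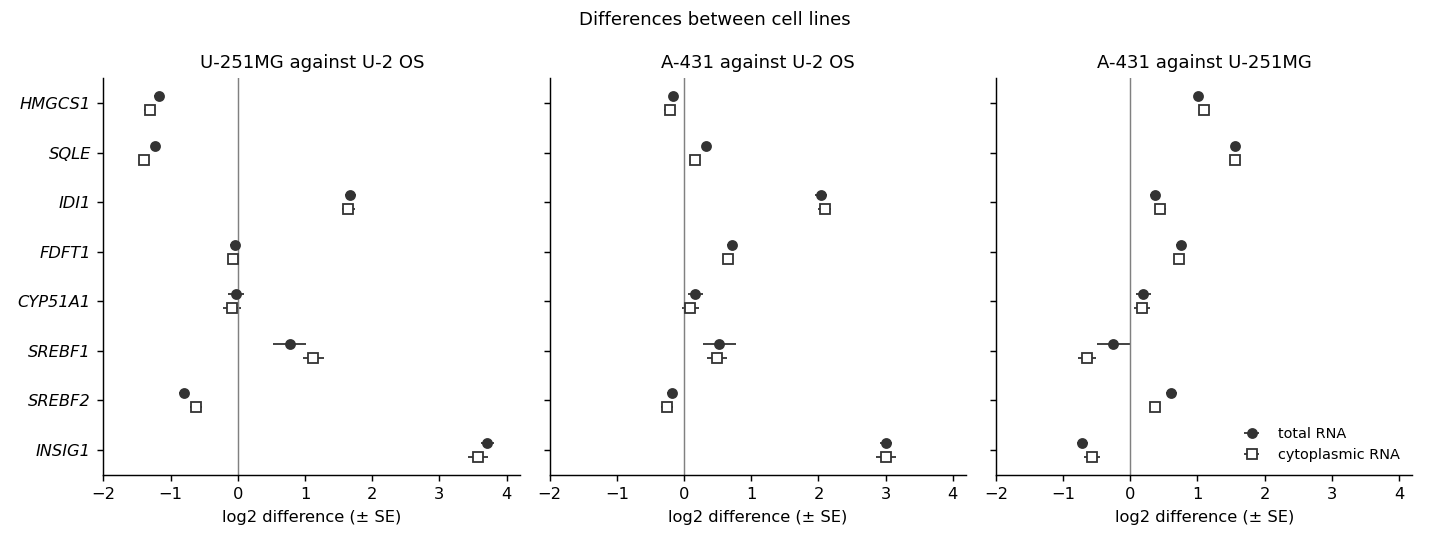
Log2 difference between cell lines for each of the 8 genes, with its standard error, in total RNA (filled circles) and cytoplasmic RNA (open squares). INSIG1 lies at 3.71 and IDI1 at 1.67 in U-251MG against U-2 OS in total RNA, while HMGCS1 and SQLE lie at -1.17 and -1.23 in the same panel.

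The 5 member enzymes were set beside the whole pathway, a list of 20 cholesterol synthesis enzymes that includes them, all tested. Over all genes tested, 28.3% to 34.8% were called in each direction between these lines in total RNA and 28.7% to 34.1% in cytoplasmic RNA. The same shares stand beside the counts of the lists below. In total RNA 14 of the 20 were higher in A-431 than in U-2 OS and 1 lower (SC5D), 12 were higher in A-431 than in U-251MG and 1 lower (ACAT2), and 8 were higher in U-251MG than in U-2 OS and 4 lower (HMGCS1, MVD, SC5D and SQLE). The median log2 differences over the list were 0.66, 0.46 and 0.27 in the same order. In cytoplasmic RNA the counts were 13 and 1, 13 and 2, and 8 and 4. A-431 was thus the high line for most enzymes, while U-251MG was mixed, with HMGCS1 and SQLE among its 4 low enzymes. LSS, which makes lanosterol, was higher in A-431 than in U-2 OS (0.76 ± 0.13, adjusted p = 1.13e-04), and DHCR7, an enzyme of the last steps, was higher in both A-431 (0.37 ± 0.090, adjusted p = 7.33e-04) and U-251MG (0.62 ± 0.090, adjusted p = 1.51e-06) than in U-2 OS.

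The list of SREBP processing and sterol sensing genes held 12, among them SREBF1, SREBF2 and INSIG1. In total RNA 5 were higher and 2 lower in A-431 than in U-2 OS, 5 and 3 in A-431 against U-251MG, and 4 and 4 in U-251MG against U-2 OS, with medians of 0.11, 0.012 and 0.058. SCAP, the sterol sensor, was lower in A-431 (-0.64 ± 0.076, adjusted p = 2.81e-08) and U-251MG (-0.38 ± 0.075, adjusted p = 5.86e-05) than in U-2 OS, the opposite direction to INSIG1 in both comparisons. In cytoplasmic RNA SCAP was again called lower in A-431 than in U-2 OS, but it was not called in U-251MG against U-2 OS. RNF145, a ubiquitin ligase of sterol sensing, was 2.56-fold higher in U-251MG than in U-2 OS (1.35 ± 0.065, adjusted p = 5.57e-16), in the direction of INSIG1. MBTPS1, which encodes the first protease that cuts SREBP, was lower in U-251MG than in U-2 OS (-0.54 ± 0.070, adjusted p = 1.18e-07), and FAF2, a membrane protein of the endoplasmic reticulum that takes part in protein degradation, was lower in A-431 than in both other lines (-0.31 ± 0.058 and -0.57 ± 0.058).

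Of 7 genes of sterol uptake and transport, 3 were higher and 1 lower in A-431 than in U-2 OS in total RNA, 2 and 4 in A-431 against U-251MG, and 2 and 1 in U-251MG against U-2 OS. Over the 6 genes with more than 3 counts in each line, their medians were -0.19, -0.34 and 0.21. NPC2, which carries cholesterol out of lysosomes, was lower in U-251MG than in U-2 OS (-0.65 ± 0.068, adjusted p = 3.37e-09), TMEM97, the sigma-2 receptor, was lower in A-431 than in U-2 OS (-0.42 ± 0.069, adjusted p = 5.57e-06), and STARD4, a cytosolic sterol carrier, was lower in A-431 than in U-251MG (-0.34 ± 0.079, adjusted p = 3.80e-04). The STARD4 difference was not called in cytoplasmic RNA.

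Of 13 matched genes of fatty acid synthesis, the SREBP-1 arm, 7 were higher and 4 lower in A-431 than in U-2 OS, 3 and 7 in A-431 against U-251MG, and 8 and 2 in U-251MG against U-2 OS, with medians of 0.63, -0.43 and 0.62. SCD, which makes monounsaturated fatty acids, stood at 569 ± 5.90 CPM (SD, n = 4) in U-2 OS, 2939.5 ± 1009.8 CPM in U-251MG and 2624 ± 239 CPM in A-431, and was 5.14-fold higher in U-251MG (2.36 ± 0.23, adjusted p = 4.30e-06) and 4.68-fold higher in A-431 (2.23 ± 0.23, adjusted p = 6.13e-06) than in U-2 OS. FASN, the fatty acid synthase, passed in none of the 3 comparisons in total RNA (log2 differences 0.63, 0.15 and 0.48), but in cytoplasmic RNA it was higher in A-431 (0.54 ± 0.12, adjusted p = 8.33e-04) and U-251MG (0.64 ± 0.12, adjusted p = 2.03e-04) than in U-2 OS. ACLY, which supplies cytosolic acetyl-CoA, was higher in U-251MG than in U-2 OS (0.82 ± 0.064, adjusted p = 1.07e-11) and lower in A-431 (-0.29 ± 0.064, adjusted p = 2.40e-04), and ELOVL5, an elongase of polyunsaturated fatty acids, was higher in U-251MG than in U-2 OS (1.06 ± 0.060, adjusted p = 2.13e-14). Against these, FADS2, the delta-6 desaturase, named here after its values were seen, was 8.53-fold lower in U-251MG (-3.09 ± 0.11, adjusted p = 3.75e-15) and 11.9-fold lower in A-431 (-3.57 ± 0.11, adjusted p = 4.37e-16) than in U-2 OS. ME1, the cytosolic malic enzyme and also named afterwards, stood at 37.5 ± 2.55 CPM in U-2 OS and 80.7 ± 5.35 CPM in A-431 total RNA and had 0 to 2 counts in U-251MG. Without it the medians of the comparisons with U-251MG were -0.46 and 0.72.

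Of 10 genes of the LXR receptors, efflux and cholesterol esters, 8 were tested in total RNA. In A-431 against U-2 OS 3 were higher and 2 lower, in A-431 against U-251MG 1 and 3, and in U-251MG against U-2 OS 6 and 2. The medians were -0.037, -0.35 and 1.55, and 0.53, -0.25 and 1.88 without ABCG1 and CYP27A1 where 1 of the lines had 3 or fewer counts of them. NCEH1, which breaks down cholesterol esters, stood at 19.7 ± 1.76 CPM (SD, n = 4) in U-2 OS, 365 ± 118 CPM in U-251MG and 299 ± 4.55 CPM in A-431. It was 18.4-fold higher in U-251MG (4.202 ± 0.22, adjusted p = 1.39e-08) and 15.4-fold higher in A-431 (3.95 ± 0.21, adjusted p = 2.00e-08) than in U-2 OS. LIPA, the lysosomal lipase, and SOAT1, which makes cholesterol esters, were also higher than in U-2 OS in both lines, LIPA by 1.88 ± 0.066 in U-251MG and 4.37 ± 0.071 in A-431, SOAT1 by 1.22 ± 0.077 and 0.98 ± 0.076. ABCA1 went another way, at 100.1 ± 7.46 CPM in U-251MG, 6.81 ± 1.08 CPM in U-2 OS and 0.286 ± 0.159 CPM in A-431 total RNA, and it differed between all 3 lines (U-251MG against U-2 OS 3.87 ± 0.11, adjusted p = 4.56e-20). CYP27A1, a sterol hydroxylase, and ABCG1, an exporter, both named after their values were seen, each had most of their reads in 1 line, CYP27A1 at 25.5 CPM in U-251MG and ABCG1 at 11.5 CPM in U-2 OS total RNA, with at most 4 and 1 counts in a total library of the other lines. NR1H2, the LXR beta receptor, was higher in U-251MG than in U-2 OS (0.54 ± 0.093, adjusted p = 1.18e-05).

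Of 8 matched genes of the isoprenoid branch, which uses the pathway's intermediates, 4 were higher and 0 lower in A-431 than in U-2 OS, 2 and 3 in A-431 against U-251MG, and 6 and 1 in U-251MG against U-2 OS, with medians of 0.26, -0.14 and 0.62. FNTA, the shared subunit of farnesyl and geranylgeranyl transferases, was higher in A-431 (1.49 ± 0.071, adjusted p = 3.39e-16) and U-251MG (0.80 ± 0.071, adjusted p = 1.39e-10) than in U-2 OS, and so was GGPS1, which makes geranylgeranyl diphosphate (0.55 ± 0.074 and 0.82 ± 0.074). NUS1 and DHDDS, the subunits of the enzyme of dolichol synthesis, stood apart from each other in U-251MG against U-2 OS, NUS1 higher by 1.18 ± 0.072 and DHDDS at -0.46 ± 0.078, both called.

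**Figure D3:**
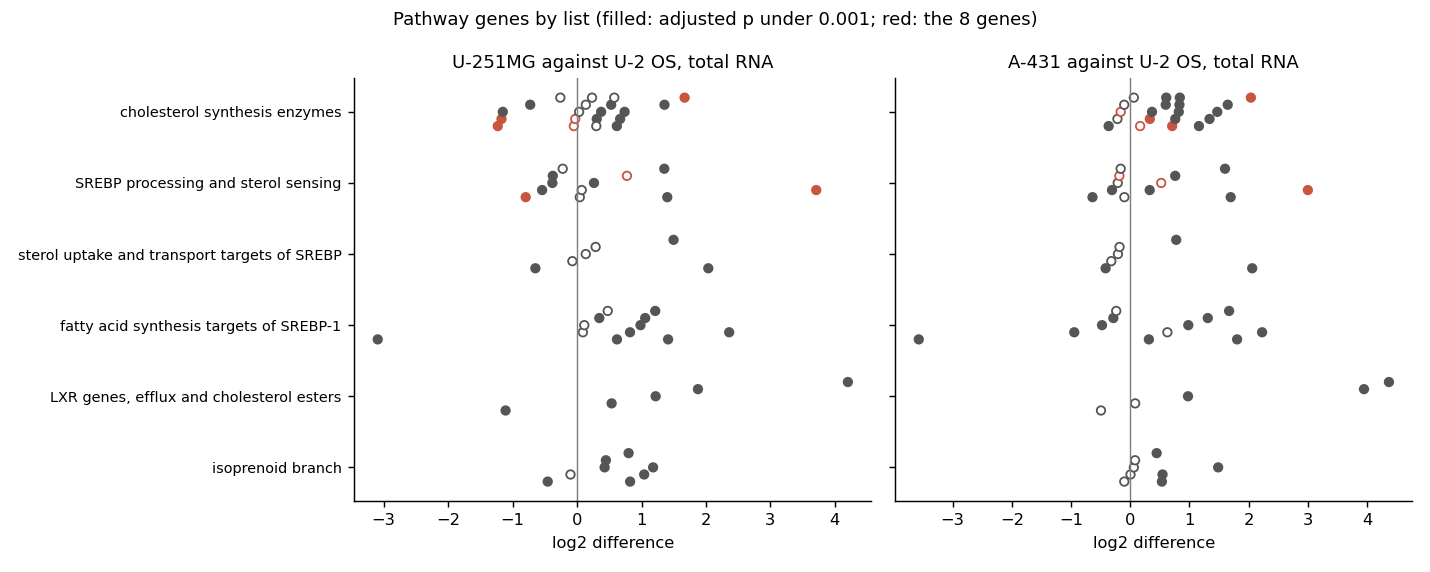
Log2 differences of U-251MG (left) and A-431 (right) from U-2 OS in total RNA, with 1 point for each gene of the 6 lists whose mean level was at least 1 CPM in every line, 20 cholesterol enzymes, 12 SREBP processing, 6 uptake, 12 fatty acid, 5 efflux and 8 isoprenoid genes. Filled points passed the test, and red points are the 8 genes. The cholesterol enzymes lie mostly to the right of 0 in A-431, with a median of 0.66.

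The study's main question was how total RNA differs from cytoplasmic RNA. In U-2 OS, HMGCS1 was higher in total RNA by 0.24 ± 0.050 (SE, adjusted p = 3.19e-04), and SREBF1 lower by a log2 difference of -0.30 ± 0.056 (SE, adjusted p = 1.23e-04), so that 1 of the 8 genes was higher and 1 lower, beside 4.75% and 3.61% of all genes tested. In A-431 HMGCS1 (0.31 ± 0.058, adjusted p = 3.60e-04) and SQLE (0.32 ± 0.058, adjusted p = 3.07e-04) were higher in total RNA and none was lower, beside 10.2% and 9.51%. In U-251MG the edgeR test called 0 of the 8 at the adjusted threshold, beside 5.93% and 6.98%, although 6 had an unadjusted p under 0.05. The share of all genes at that unadjusted level is not given here, so the 6 are not read as a result about the members. DESeq2 also called 0 there. The spread between libraries was largest in U-251MG, with a common biological coefficient of variation of 0.107 against 0.0583 in U-2 OS and 0.0702 in A-431.

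The calls in U-2 OS and A-431 were small, and all were kept with RLE scaling but lost under other alternatives. HMGCS1 in U-2 OS kept a value of 0.077 to 0.27 and lost its call under 10 of 17 alternatives, HMGCS1 in A-431 (0.049 to 0.35) under 7 of 16, SQLE in A-431 under 6 of 16 and SREBF1 in U-2 OS under 7 of 17, among them leaving out single libraries. On RPKM no gene of the 18049 tested in U-2 OS passed, so the losses there say nothing about the members. HMGCS1 in U-2 OS lost it without total replicate 2 or 4 or cytoplasmic replicate 14, 15 or 16 (0.22 to 0.25, adjusted p 0.00114 to 0.00930). SREBF1 in U-2 OS lost it without total replicate 4 or cytoplasmic replicate 15 (-0.27 to -0.26, adjusted p 0.00118 to 0.00346). HMGCS1 in A-431 lost it without total replicate 12 or cytoplasmic replicate 22 or 23 (0.29 to 0.31, adjusted p 0.00153 to 0.00213). SQLE in A-431 lost it without total replicate 9 or cytoplasmic replicate 22 or 23 (0.29 to 0.32, adjusted p 0.00142 to 0.00184). INSIG1 in A-431, not called, passed without total replicate 10 (0.31, adjusted p = 7.12e-04).

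By value, the 8 genes formed the same sets in each line. HMGCS1, SQLE, IDI1, FDFT1, CYP51A1 and INSIG1 had log2 values above 0 in all 3 lines, and SREBF1 and SREBF2 below 0 in all 3, with TMM scaling. With a GC offset the sign turned for FDFT1 in U-2 OS and U-251MG, IDI1 in U-251MG and A-431, SREBF1 in A-431 and SREBF2 in all 3 lines, and on RPKM for IDI1, FDFT1 and CYP51A1 in U-2 OS. In the order U-2 OS, U-251MG, A-431, the values for SREBF1 were -0.30 ± 0.056, -0.63 ± 0.31 and -0.25 ± 0.075, and for SREBF2 -0.14 ± 0.052, -0.30 ± 0.11 and -0.062 ± 0.061. For HMGCS1 they were 0.24 ± 0.050, 0.40 ± 0.10 and 0.31 ± 0.058, and for INSIG1 0.26 ± 0.074, 0.40 ± 0.15 and 0.26 ± 0.064. The SREBF1 value in U-251MG includes total replicate 8, at 73.5 CPM against 142 to 199.7 CPM in replicates 5 to 7. It ran from -0.85 to -0.10 over 17 alternatives. FDFT1 was closest to 0 of the enzymes, at 0.024 ± 0.053, 0.062 ± 0.093 and 0.087 ± 0.046. CYP51A1, whose counts are uncertain, stood at 0.33 ± 0.099, 0.40 ± 0.16 and 0.41 ± 0.089, the highest of the 8 in U-2 OS and A-431. The edgeR test called it in no line. In A-431 it was called by DESeq2 (adjusted p = 2e-04) and by edgeR with no filter on low counts (adjusted p = 5.69e-04).

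**Figure D4:**
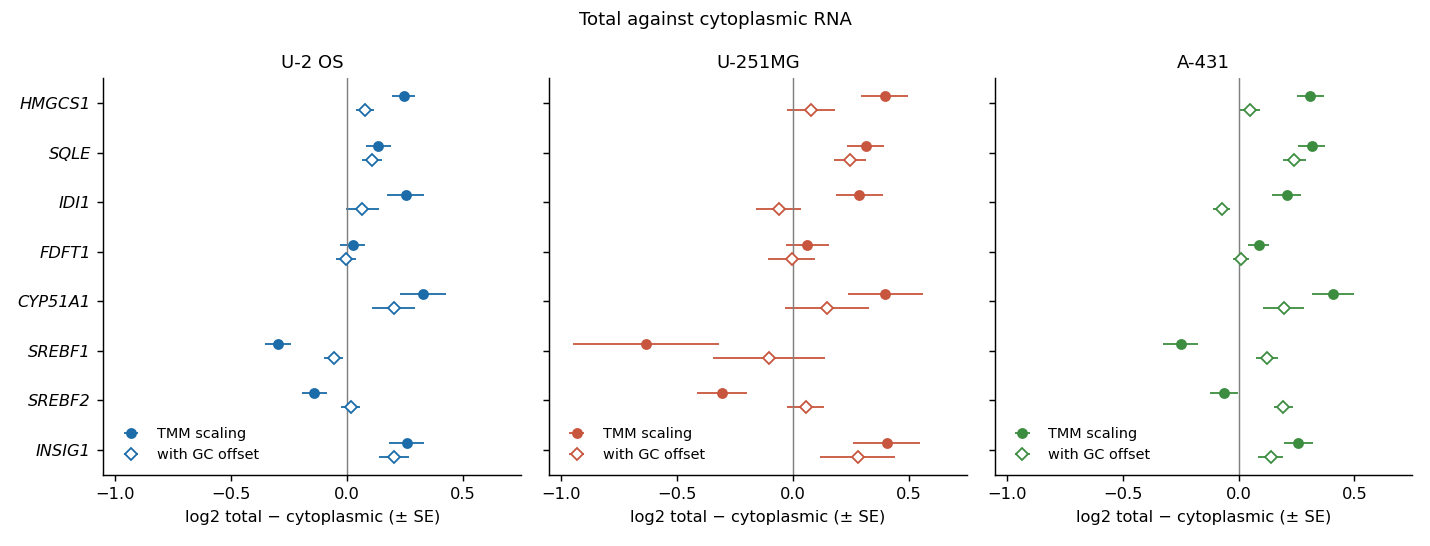
Log2 difference of total from cytoplasmic RNA for each of the 8 genes with its standard error, by cell line, with TMM scaling (filled circles) and with an offset for GC content added (open diamonds). SREBF1 in U-251MG lies at -0.63 with TMM scaling and at -0.10 with the offset.

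GC content moved with the fraction values. The SREBF1 and SREBF2 transcripts have 63.2% and 58.0% GC, and the other 6 genes 37.9% to 46.5%. Over the listed pathway genes, Spearman's rho between GC content and the fraction value was -0.86 over 65 genes in A-431, -0.93 over 65 genes in U-251MG and -0.88 over 66 genes in U-2 OS. Over all genes tested it was -0.68, -0.74 and -0.57 in the same order. These are descriptions across genes of the same libraries and carry no p. The GC index of the libraries ran from -0.891 to 0.111 in total RNA and from 0.177 to 0.607 in cytoplasmic RNA, without overlap. With a GC offset in the model, 0 of the 8 genes were called in U-2 OS and 0 in A-431, where over all genes the calls were 337 higher and 211 lower of 18049 genes tested in U-2 OS and 593 higher and 700 lower of 16376 genes tested in A-431. Those counts are low enough that none of 8 is close to the share over all genes. HMGCS1 then stood at 0.077 in U-2 OS (edgeR adjusted p = 0.186) and 0.049 in A-431 (adjusted p = 0.439). SQLE stood at 0.24 in A-431 (edgeR adjusted p = 0.00109), just short of the threshold. With TMM scaling, 5 of the 20 cholesterol enzymes were higher and 3 lower in the total RNA of A-431, 2 and 1 of U-2 OS, and 1 and 1 of U-251MG. The shares over all genes were 10.2% and 9.51%, 4.75% and 3.61%, and 5.93% and 6.98% in the same order.

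**Figure D5:**
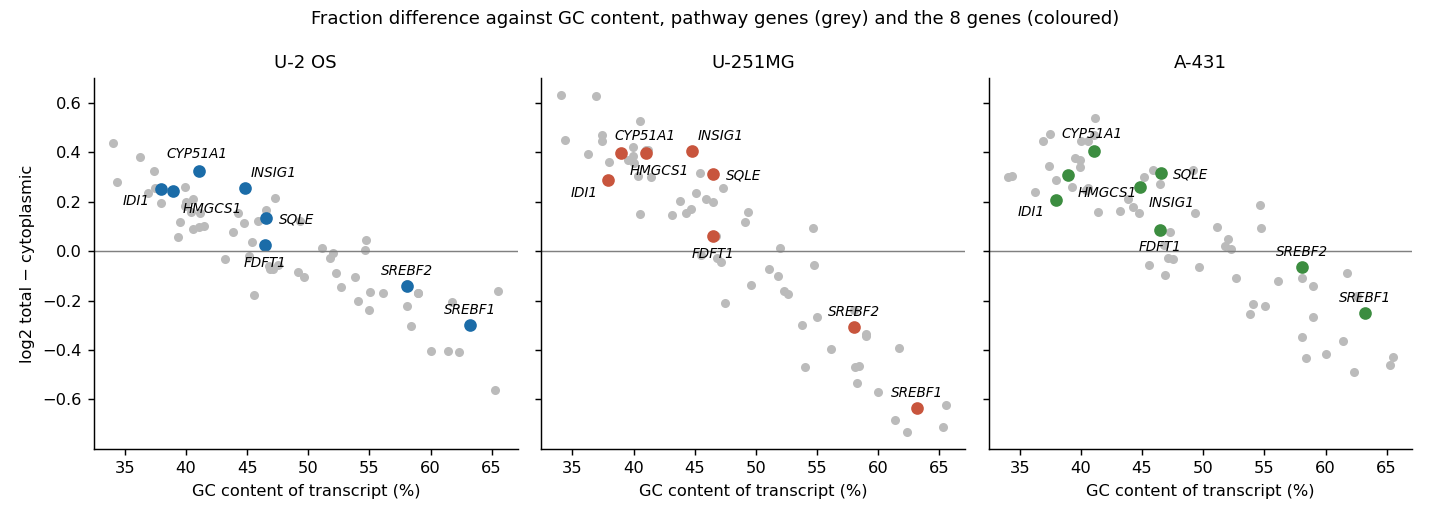
Log2 difference of total from cytoplasmic RNA against the GC content of the transcript, by cell line, for the listed pathway genes (grey) and the 8 genes (coloured and named). SREBF1 and SREBF2 lie to the right of the others and, with the TMM scaling drawn, below them, at 63.2% and 58.0% GC.

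Flow cell also went with fraction. All total libraries were on flow cell A, as were cytoplasmic replicates 14, 19 and 20, and the remaining 8 were on flow cell B. A-431 had no cytoplasmic library on flow cell A, so its fraction and flow cell cannot be told apart. On flow cell A alone, 0 of the 8 genes were called in U-2 OS or U-251MG, with 1 and 2 cytoplasmic libraries, where over all genes the calls were 25 higher and 101 lower of 18973 genes tested in U-2 OS and 17 higher and 35 lower of 16483 genes tested in U-251MG. So few calls over all genes leave nothing to read from the 8. MALAT1 and NEAT1, RNAs that stay in the nucleus, had higher means in the cytoplasmic libraries of all 3 lines. MALAT1 stood at 29.6 CPM in total and 52.5 CPM in cytoplasmic RNA of U-2 OS, at 20.4 and 51.5 CPM in U-251MG and at 11.7 and 32.3 CPM in A-431. Together these nuclear RNAs summed to 185 to 643 CPM in total and 646 to 1388 CPM in cytoplasmic libraries. Neither was at 0 in any group. The 4 mitochondrial mRNAs listed summed to 8069.6 to 24109.8 CPM in total and 23206 to 35911 CPM in cytoplasmic libraries. The part of flow cell, nuclear RNA or mitochondrial RNA in the values of the 8 genes was not tested.

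Whether the fraction difference itself differed between lines was tested as an interaction in 1 model of all 6 groups, at an adjusted p under 0.05. Of 24 tests on the 8 genes the edgeR test called 0, where 2.12% of all genes were called in A-431 against U-2 OS, 0.160% in A-431 against U-251MG and 1.67% in U-251MG against U-2 OS. At an unadjusted p under 0.05 it called 1, SQLE in U-251MG against U-2 OS (0.21 ± 0.10, adjusted p = 0.244). With 24 tests, about that number is given by chance. The log2 interactions ran from -0.31 to 0.35 and the smallest adjusted p was 0.244. SREBF1 gave 0.35 ± 0.29 in A-431 against U-251MG and INSIG1 0.17 ± 0.17 in U-251MG against U-2 OS. A difference between lines in how these genes divide between total and cytoplasmic RNA was thus not detectable with this spread. Of the other pathway genes 1 was called, NPC1 in A-431 against U-2 OS (0.40 ± 0.11, adjusted p = 0.0480).

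The genes whose pattern was most like each member's were found by the root mean square distance between log2 CPM over the 23 libraries, each gene centred on its own mean, among 11759 protein-coding genes. The nearest to HMGCS1 were CPOX (0.113) and EML4 (0.123), to SQLE USP6NL (0.0932) and PPP2R5E (0.106) and to FDFT1 ITPRIPL2 (0.0937) and OPTN (0.102). Those nearest to SREBF2 were ITGB5 (0.0820) and NPC2 (0.0936), of which NPC2 is on the sterol transport list. For IDI1 they were PIGX (0.133) and ACADSB (0.135), for SREBF1 SLC1A5 (0.178), for CYP51A1 GPN1 (0.176) and ATF7IP (0.182) and for INSIG1 GCNT2 (0.235) and FMNL2 (0.253). Among the members, the closest pair was HMGCS1 and SQLE (0.241), and INSIG1 was far from all others, nearest to IDI1 (0.802) and farthest from SQLE (1.99). Patterns over 23 libraries of 3 lines mostly reflect the lines, so likeness here is a description.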

How the data were processed

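Poly(A) RNA was sequenced on the HiSeq 2000. The labels and the study's methods differ on the extraction kit and on single or paired reads. The deposited counts were made by the authors with TopHat 1.1.4, SAMtools 0.1.8 and HTSeq 0.4.6 on hg19 (intersection-strict, exons, no strand), without normalization. RPKM, deposited beside them, came from another counting by the authors and sums to 3318560 to 3698100 a library, so the main tests used the counts. RPKM entered as log2(RPKM + 1) or log2(RPKM + 0.1) in limma 3.58.1, as an alternative, and these fold changes understate those of low genes.

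Counts were scaled by TMM, filtered by filterByExpr and tested with edgeR 4.0.16 (R 4.3.3), by the robust quasi-likelihood test with Benjamini-Hochberg adjustment over all genes tested, 18610 in total RNA, 19344 in cytoplasmic RNA, 18049, 16128 and 16376 between the fractions (U-2 OS, then U-251MG, then A-431) and 19948 in the model of all groups. Fractions were compared within a line, and lines within a fraction with all 3 lines in 1 model. Alternatives were RLE scaling, DESeq2 1.42.0, no filter, RPKM, a GC offset, 1 model of all groups, flow cell A alone, all deposited libraries, another threshold, and each library left out. Scripts were tested on simulated data. Symbols were matched for 42986 of 51715 genes. Totals of 19918911 to 32394170 counts a library set the depth, and limits at 0 counts cover counting error only. All 36 pairs of replicates differed by more than counting noise (chi-square per gene 3.83 to 46.6). Gene positions and transcripts are from GENCODE v44lift37 and promoter and microRNA sequences from RefSeq (GRCh38.p14), located in GRCh37 by exact match.

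The members, lists and tests were chosen with earlier results of these data known. The genes named beside the members were some chosen by name (FASN, SCD, INSIG2, SCAP and ABCA1 among them), up to 4 more of each list with the highest mean log2 CPM, those called alike in all 3 lines, and the 2 nearest by pattern, and some that this rule names are not reported here.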

Additional observations from a re-analysis of the deposited data

Results flagged for a closer look

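CYP51A1 in U-251MG total RNA had 1 library far from the other 3. Replicate 8 stood at 7.64 CPM against 10.6 to 11.2 CPM in replicates 5 to 7, and its gap to the nearest of them was 0.835 of the whole range of the group, above Dixon's 95% critical value for 4 samples. The test was run on 40 groups of 4 libraries, of which chance flags about 1 in 20. The same library had the lowest GC index and the lowest SREBF1 level of its group, and the part of these in the CYP51A1 value was not tested.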

How the results depend on the processing

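Over the alternatives, 1238 of the values of single members kept their direction and side of the threshold, 60 lost a call, 47 gained one and 23 changed sign. Of the counts of members called, 237 stayed within 1.5 times the main count and 28 did not.

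Between fractions the count of members called was least stable. In U-2 OS, 2 were called, against 0 on RPKM with either pseudocount (where 0 of all genes passed), 0 with the GC offset, 0 in 1 model over all groups, 0 on flow cell A alone and 7 at an adjusted p under 0.05, and leaving out 1 library gave 0 to 2. On flow cell A alone U-2 OS has 1 cytoplasmic library, which is assumed to vary like the rest. In U-251MG, 0 were called, against 1 with no filter on low counts, 2 in 1 model over all groups and 5 at an adjusted p under 0.05, and 0 to 0 with 1 library left out. In A-431, 2 were called, against 4 by DESeq2, 5 with no filter, 0 on RPKM with either pseudocount, 0 with the GC offset, 1 in 1 model over all groups and 6 at an adjusted p under 0.05, and 0 to 3 with 1 library left out. Shares over all genes at an adjusted p under 0.05 are not given here. Member counts at that threshold, also those between lines below, are therefore not read as results about the members. The cause of these moves was not tested.

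Between lines the counts moved in 2 cases, in cytoplasmic RNA. A-431 against U-2 OS gave 6 in place of 3 at an adjusted p under 0.05, and A-431 against U-251MG gave 3 in place of 6 on RPKM with either pseudocount. Leaving out 1 library gave 4 to 6 for A-431 against U-2 OS, 5 to 7 for A-431 against U-251MG and 5 to 6 for U-251MG against U-2 OS in total RNA, and 3 to 4, 4 to 6 and 6 to 6 in cytoplasmic RNA. The interaction counts stayed at 0. With the GC offset 1 more value passed in A-431 against U-2 OS in total RNA, HMGCS1, at -0.29, and SREBF1 in U-251MG against U-2 OS passed at 1.15 (adjusted p = 2.78e-04). In cytoplasmic RNA it let SREBF1 pass in A-431 against U-2 OS (0.60) and against U-251MG (-0.59) and ended the call of INSIG1 in A-431 against U-251MG (-0.59).

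No member value that was called changed sign between lines. Sign changes between fractions were IDI1 (-0.26 and -0.26 on RPKM with the larger and the smaller pseudocount), FDFT1 (-0.010 and -0.010) and CYP51A1 (-0.21 and -0.21) in U-2 OS, and FDFT1 there without cytoplasmic replicate 14 (-0.030 to 0.057 with 1 library left out). With the GC offset they were FDFT1 (-0.0045) and SREBF2 (0.015) in U-2 OS, IDI1 (-0.061), FDFT1 (-0.0048) and SREBF2 (0.055) in U-251MG, and IDI1 (-0.072), SREBF1 (0.12) and SREBF2 (0.19) in A-431, where SREBF2 also turned without cytoplasmic replicate 24 (-0.10 to 0.0079 with 1 left out). Between U-251MG and U-2 OS in total RNA, FDFT1 turned without U-251MG replicate 8 (-0.10 to 0.026 with 1 left out), and CYP51A1 on RPKM (0.012 and 0.012) and without U-2 OS replicate 3 or U-251MG replicate 8 (-0.076 to 0.094 with 1 left out). In A-431 against U-2 OS in cytoplasmic RNA CYP51A1 turned on RPKM (-0.083 and -0.083). RPKM with the smaller pseudocount moved the median of all genes in U-251MG against U-2 OS in cytoplasmic RNA from -0.039 to -0.19. No paired analysis was possible because the replicate numbers of the labels run on through all libraries and no groups share one.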
